A study of Homo sapiens with 4 samples.

Results

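The genes examined here encode the subunits of the nuclear RNA polymerases I, II and III. They were taken by name, as every gene whose symbol in the array's probe annotation begins with POLR1, POLR2 or POLR3 followed by a letter, and only probe sets listed for a single gene were used. This gave 32 of the 19775 genes that have such a probe set. The cells were HCT116, an established human colon cancer line. They had been without serum for 24 h and were then held for 72 h (3 days) at 1% oxygen (hypoxia) or at 21% oxygen (normoxia), so that all 4 arrays, 2 per group, come from serum-starved cells. Each group has an array titled exp A and another titled exp B, here A and B, and whether these experiments were separate cultures or shared a day is not given. P-values therefore reflect only how far these samples differ, possibly for technical reasons, and precision is limited by the number of arrays.

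RNA polymerase I transcribes the large ribosomal RNA precursor in the nucleolus, RNA polymerase II transcribes messenger RNAs and many small nuclear RNAs, and RNA polymerase III transcribes transfer RNAs, 5S ribosomal RNA and other short RNAs. Each enzyme has its own pair of largest subunits, which form the catalytic centre, and its own stalk. POLR2E, POLR2F, POLR2H, POLR2K and POLR2L are common to all 3 enzymes, while POLR1C and POLR1D are common to polymerases I and III. Output of polymerases I and III supplies the ribosome and is known to be matched to growth, with MYC as an activator and MAF1 as a repressor of polymerase III.

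Signals are the authors' MAS5 intensities on a linear scale, and log2 differences are hypoxia minus normoxia of log2(signal + 23.7), with the constant set at the 25th percentile of the values. Changes of weakly expressed genes come out too small on this scale. Each array had a trimmed mean of 500.1, so the arrays appear to have been set to a common mean, and a shift of most genes together would not be seen. The median signal of all probe sets was 119.6 and 125 in hypoxia and 69.2 and 99.96 in normoxia. NDRG1 and VEGFA, known targets of hypoxia-inducible factors, were higher in hypoxia (log2 differences 4.02 and 2.10). The 6 colon epithelial markers summed to 115114 and 107717 in hypoxia and 73997 and 87508.5 in normoxia, while CDX2 among them was low, at 23.0 and 107 in hypoxia and 210.04 and 217 in normoxia. Summed over the 6 measured markers of blood, vessel and connective tissue cells, the signal was 2227 and 2791 in hypoxia and 724 and 1198 in normoxia, most of it from COL1A1 (1752 and 2162 in hypoxia, 545 and 595 in normoxia). No marker of either list was at 0. The ratio of the 3′ to the 5′ probe set of ACTB, a sign of RNA integrity, was 1.66 and 1.77 in hypoxia and 1.26 and 1.28 in normoxia, while that of GAPDH was 0.912 and 0.955 in hypoxia and 0.918 and 0.996 in normoxia. The part of these differences in the results was not tested.

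Of the 32 genes, 30 had a mean signal of 97.4 or more, the median over probe sets, and were tested with limma. In hypoxia 19 of the 30 were lower at a Benjamini-Hochberg adjusted p under 0.05, 0 were higher and 11 were not called. Among the 11 is POLR2J4, annotated as a transcribed pseudogene but counted here with the subunit genes. Over all 12636 genes tested, 22.8% were called lower and 15.3% higher, 38.0% in either direction. The limma fit gave an unadjusted p under 0.05 to 21 of the lower and 0 of the higher subunit genes. With each array scaled to its 75th percentile, the median of all genes moved by 0.15 on the log2 scale. Then 13 subunit genes were lower and 0 higher, beside 19% of all genes lower. Scaling to the hybridization controls moved that median by -1.46 and gave 25 lower and 0 higher subunit genes. Of all genes 46.3% were then lower, and of all called genes 0.89% were higher, against 40.1% before. The median log2 difference of the tested subunit genes was -0.75, and that of all tested genes was -0.03. Fewer subunit genes were called lower with either normoxia array left out, but a smaller share of all tested genes was then called lower too. The loss of calls was therefore not confined to the subunit genes. With either hypoxia array left out, a larger share of all tested genes was called lower than in the full fit. Both limits hold for the counts by class and list below, so counts without 1 array cannot be set against the 22.8%. The median log2 difference of the subunit genes was -0.70 with normoxia A left out and -0.80 with normoxia B left out. Leaving out hypoxia A gave -0.87, and leaving out hypoxia B gave -0.65. With either of the normoxia arrays left out POLR1C, POLR1E, POLR2B, POLR2E, POLR2I, POLR2K, POLR3A, POLR3E and POLR3GL lost their call. POLR1A, POLR1G and POLR2D lost it only without normoxia A, POLR2L without normoxia B or hypoxia B, and POLR2B also without hypoxia A. Left out of the fit, hypoxia A gave calls to POLR1F and POLR3G, and hypoxia B to POLR1H. With the mean of all probe sets of a gene POLR1E, POLR2B, POLR3A and POLR3E lost their call, and scaling to the 75th percentile took it from POLR1E, POLR2B, POLR2D, POLR2E, POLR2K and POLR2L. In 23 of the 30 genes the hypoxia values both lay below the normoxia values, as they did in 37.9% of all tested genes, and in 3 they both lay above, against 34.1% of all. The mean signal in hypoxia alone was under the filter for POLR1A and POLR3C, which were therefore tested because of their level in normoxia. That favours a call of lower, and both are counted among the 19. In bulk RNA, fewer cells with a transcript and less transcript per cell cannot be told apart.

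**Figure D1:**
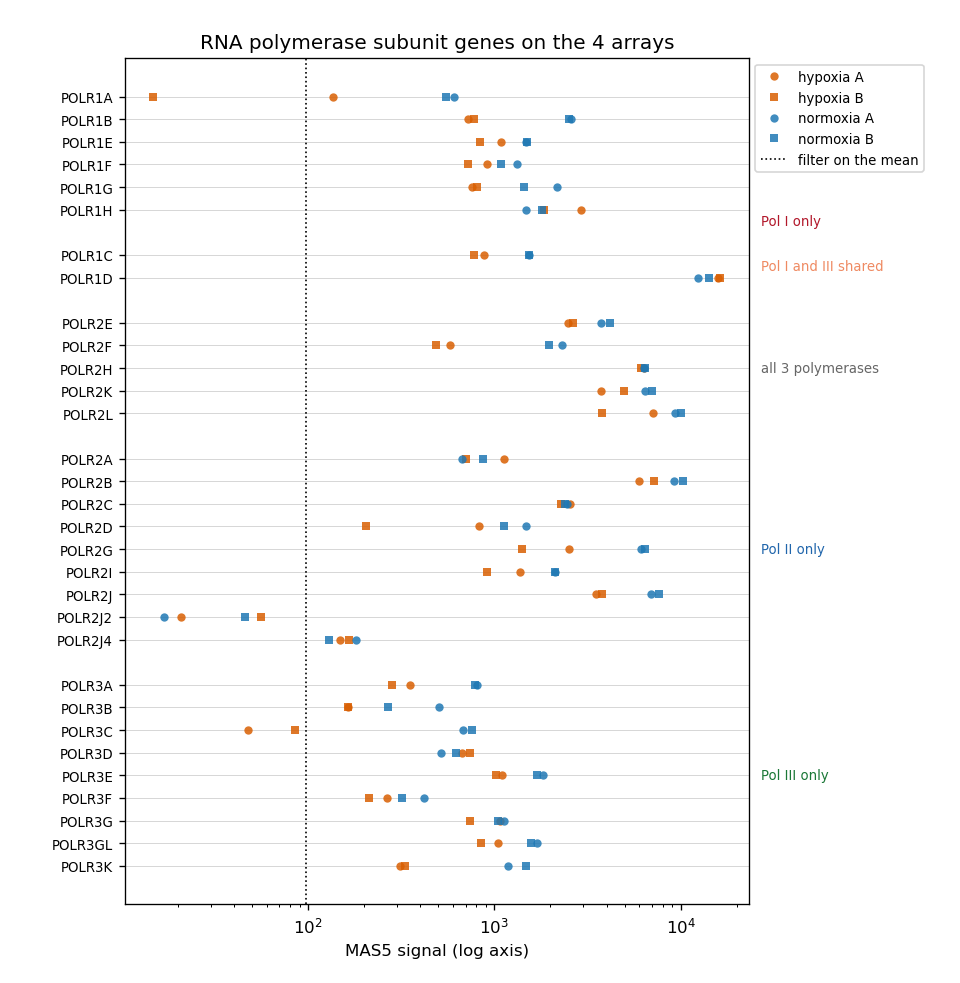
MAS5 signal of each polymerase subunit gene on the 4 arrays (log axis), with circles for the A arrays and squares for the B arrays, orange for hypoxia and blue for normoxia, and a dotted line at the filter of 97.4. POLR1A on hypoxia B (14.7) and POLR3C on hypoxia A (47.6) lie left of the filter, whereas POLR1D lies between 12354 and 16344.

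The subunits found in polymerase I alone were lower in 4 of 6 genes. POLR1A among the 4 passed the filter only because of its level in normoxia. With a filter at the 75th percentile, which it did not pass, 3 of 5 were lower, beside 32.3% of all tested genes. POLR1A encodes the largest subunit, and its signals were 136 and 14.7 in hypoxia, against 609.9 and 547 in normoxia. Both hypoxia values were below both normoxia values, and hypoxia B was far below hypoxia A (log2 difference -2.94 ± 0.68 SE, adjusted p = 0.00872). Leaving out hypoxia A put POLR1A at -3.97 and leaving out hypoxia B put it at -1.91. POLR1B encodes the other large subunit of the catalytic centre, with signals of 720.5 and 774 in hypoxia, against 2590.1 and 2511 in normoxia. Here the hypoxia arrays lay close together and far below the normoxia arrays (log2 difference -1.74 ± 0.19 SE, adjusted p = 0.000244). POLR1E and POLR1G, which form a heterodimer on the enzyme that in yeast acts in elongation, were both lower. POLR1G had 758 and 809.9 in hypoxia, against 2165 and 1449.6 in normoxia, so the normoxia arrays were spread more widely than the hypoxia arrays without meeting them (log2 difference -1.15 ± 0.24 SE, adjusted p = 0.00522). The signals of POLR1E were 1087 and 839 in hypoxia, against 1482 and 1496 in normoxia, again without overlap (log2 difference -0.63 ± 0.21 SE, adjusted p = 0.0447).

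The stalk subunit gene POLR1F was not called, with 914 and 726 in hypoxia, against 1317 and 1087 in normoxia (log2 difference -0.54 ± 0.23 SE, adjusted p = 0.0939). POLR1H encodes the small subunit that takes part in RNA cleavage, and it gave the highest log2 difference of the 30 genes, also not called. Its signals were 2929.6 and 1850.3 in hypoxia, against 1477 and 1793 in normoxia, and hypoxia B was close to normoxia B (log2 difference 0.51 ± 0.24 SE, adjusted p = 0.126). The suffix of its probe set marks it as open to cross-hybridization. Called genes specific to polymerase I numbered 1 without normoxia A and 3 without normoxia B. Without hypoxia B POLR1H was called higher (0.84, adjusted p = 0.00244). POLR1HASP, a pseudogene antisense to POLR1H that matches the naming rule but encodes no subunit, had 147 and 89.7 in hypoxia, against 45.2 and 10.9 in normoxia, with a mean over the 4 arrays of 73.1, under the filter.

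Of the pair shared by polymerases I and III, which nucleates assembly of both enzymes, 1 was lower. POLR1C had 877 and 773 in hypoxia, against 1539.9 and 1528 in normoxia, with no overlap (log2 difference -0.88 ± 0.20 SE, adjusted p = 0.00866). With either normoxia array left out the adjusted p from limma was 0.137. POLR1D, its partner, had 15785 and 16344 in hypoxia, against 12354 and 14194 in normoxia, where both hypoxia values were the higher ones and the difference was not called (log2 difference 0.28 ± 0.17 SE, adjusted p = 0.222, 95% interval -0.10 to 0.66). POLR1D was negative with quantile normalization (-0.13) and scaled to the hybridization controls (-1.18), so its direction depends on the scaling. POLR1C was negative under both (-0.73 and -2.30).

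Among the 5 subunits common to all 3 polymerases, 4 were lower. POLR2F, a small subunit near the clamp, changed most, with 579 and 486 in hypoxia, against 2295 and 1962 in normoxia (log2 difference -1.95 ± 0.22 SE, adjusted p = 0.000273). The hypoxia arrays lay close together, far below the normoxia arrays. POLR2L and POLR2K encode small zinc-binding subunits. POLR2L had 7115 and 3785 in hypoxia, against 9377 and 10057 in normoxia, with hypoxia B far below hypoxia A (log2 difference -0.90 ± 0.27 SE, adjusted p = 0.0260). Leaving out hypoxia A put it at -1.35, and leaving out hypoxia B put it at -0.45 and not called (limma adjusted p = 0.0571). POLR2K had 3744 and 4948 in hypoxia, against 6433 and 7032 in normoxia (log2 difference -0.64 ± 0.18 SE, adjusted p = 0.0233), and POLR2E had 2482 and 2638 in hypoxia, against 3739 and 4164 in normoxia (log2 difference -0.62 ± 0.17 SE, adjusted p = 0.0170). In both genes the 4 arrays separated by oxygen group. POLR2H was the member that was not called, with 6328 and 6121 in hypoxia, against 6335 and 6424 in normoxia. Its 4 values lay within a narrow range, and its log2 difference of -0.04 had a 95% interval of -0.39 to 0.32 (adjusted p = 0.873). Without normoxia A 2 of the 5 were lower, and without normoxia B 1 was.

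Of the genes specific to polymerase II, 9 matched the rule, 8 were tested and 5 were lower. Without the pseudogene POLR2J4, 7 were tested and 5 were lower. POLR2A encodes the largest subunit, which carries the tail of heptad repeats that is phosphorylated during transcription. It was not called, with 1122 and 708 in hypoxia, against 667 and 869 in normoxia, and the groups overlapped (log2 difference 0.22 ± 0.28 SE, adjusted p = 0.566, 95% interval -0.42 to 0.86). POLR2B, the gene of the other large subunit, was lower, with 5965 and 7182 in hypoxia, against 9179 and 10242 in normoxia (log2 difference -0.57 ± 0.17 SE, adjusted p = 0.0291). The fall was small beside that of its counterpart POLR1B, and of the leave-outs only that of hypoxia B kept it called. With the mean of all its probe sets POLR2B was at -0.055 and not called (limma adjusted p = 0.827). That mean takes in a set under the filter at 0.90, while the further set past the filter was at -0.50. POLR2D and POLR2G together form the stalk, where the nascent RNA leaves the enzyme, and both were lower. POLR2G had 2516 and 1403 in hypoxia, against 6148 and 6419 in normoxia, with hypoxia B the lowest (log2 difference -1.73 ± 0.25 SE, adjusted p = 0.000982). POLR2D had 826 and 205 in hypoxia, against 1471 and 1133 in normoxia, where hypoxia A and hypoxia B were far apart (log2 difference -1.58 ± 0.51 SE, adjusted p = 0.0383). With hypoxia A left out the log2 difference was -2.52, and with hypoxia B left out it was -0.63.

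Of the assembly pair of polymerase II, POLR2J was lower and POLR2C was not called. POLR2J had 3501 and 3797 in hypoxia, against 6957 and 7629 in normoxia (log2 difference -0.99 ± 0.16 SE, adjusted p = 0.00157), while POLR2C had 2537 and 2273 in hypoxia, against 2448 and 2395 in normoxia, where the groups overlapped (log2 difference -0.01, 95% interval -0.40 to 0.38, adjusted p = 0.964). Both probe sets carry the suffix that the manufacturer gives to sets open to cross-hybridization, and POLR2J has near-identical copies in POLR2J2 and POLR2J3, so its value is uncertain. POLR2I, whose yeast counterpart acts in transcription fidelity, had 1378 and 907 in hypoxia, against 2108 and 2119.8 in normoxia (log2 difference -0.90 ± 0.23 SE, adjusted p = 0.0136). POLR2J2 stayed under the filter on all 4 arrays (16.8 to 55.8). POLR2J4, annotated as a transcribed pseudogene, had 149 and 166 in hypoxia, against 181 and 129 in normoxia and was not called (adjusted p = 0.968). Without normoxia A 2 genes of this class were lower, and without normoxia B 3 were. POLR2J3 and POLR2M appear only on probe sets listed for several genes and were not analysed here.

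Genes specific to polymerase III were lower in 5 of 9 cases. POLR3C among the 5 passed the filter only because of its level in normoxia. With a filter at the 75th percentile, which it did not pass, 4 of 6 were lower, beside 32.3% of all tested genes. POLR3C, part of the heterotrimer of POLR3C, POLR3F and either POLR3G or POLR3GL that acts in initiation, had signals of 47.6 and 85.1 in hypoxia, against 675 and 762 in normoxia. Both hypoxia values lay under the filter, so the size of the difference depends on the added constant (log2 difference -3.07 ± 0.44 SE, adjusted p = 0.000905). It was -3.47 with a constant of 1 and -2.31 with 100. POLR3K, the small subunit involved in RNA cleavage and termination, had 311 and 333 in hypoxia, against 1179 and 1473 in normoxia, and the groups were far apart (log2 difference -1.96 ± 0.25 SE, adjusted p = 0.000550). POLR3A, which encodes the largest subunit, had 353 and 282 in hypoxia, against 811 and 782 in normoxia (log2 difference -1.27 ± 0.28 SE, adjusted p = 0.00725). Without normoxia A the log2 difference of POLR3A was -1.25 and without normoxia B it was -1.30, with limma adjusted p-values of 0.0747 and 0.0711, and with the mean of its probe sets it was -0.61 and not called.

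POLR3E had 1104 and 1019 in hypoxia, against 1814 and 1696 in normoxia (log2 difference -0.71 ± 0.19 SE, adjusted p = 0.0170), while POLR3D, its partner in a heterodimer related to an initiation factor of polymerase II, had 669 and 736 in hypoxia, against 518 and 623 in normoxia and was not called (log2 difference 0.29, 95% interval -0.28 to 0.87). All hypoxia values were below normoxia in POLR3E and all were above in POLR3D. POLR3G and POLR3GL are alternative subunits that take the same place in the heterotrimer. POLR3GL was lower, with 1044 and 849 in hypoxia, against 1698 and 1569.5 in normoxia (log2 difference -0.78 ± 0.21 SE, adjusted p = 0.0164). For POLR3G the signals were 1076 and 735 in hypoxia, against 1132 and 1042 in normoxia, where hypoxia A lay between the normoxia values (log2 difference -0.28, 95% interval -0.84 to 0.27, adjusted p = 0.395). The intervals of the 2 genes overlapped, and the difference between them was not tested.

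POLR3B, the other large subunit, had 164 and 164 in hypoxia, against 503 and 269 in normoxia. The hypoxia arrays agreed closely and lay below both normoxia arrays, which were far apart, and the gene was not called (log2 difference -1.07 ± 0.45 SE, adjusted p = 0.0919). POLR3F had 264 and 212 in hypoxia, against 420.5 and 318 in normoxia, without overlap and not called (log2 difference -0.58, adjusted p = 0.257). CRCP, a stalk subunit of polymerase III that the naming rule does not reach, had 789 and 511 in hypoxia, against 877 and 543 in normoxia and was not called (log2 difference -0.11, adjusted p = 0.802). Leaving out normoxia A left 2 genes of this class lower, as did leaving out normoxia B. The hypoxia means of POLR1A, POLR2J4, POLR3B, POLR3C and POLR3F were under 305, which a probe set for a Bacillus sequence reached on hypoxia A. The highest Bacillus signal was 226 on hypoxia B, 45.7 on normoxia A and 121 on normoxia B, so it differed between the groups.

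The median log2 difference was -0.89 for the 6 genes of polymerase I alone, -0.73 for the 8 of polymerase II alone and -0.78 for the 9 of polymerase III alone, against -0.03 for all genes. Leaving out the pseudogene POLR2J4 gave -0.90 for 7 genes of polymerase II. It was -0.64 for the 5 common subunits and -0.30 for POLR1C and POLR1D. With the mean of all probe sets the medians for polymerases I, II and III alone were -1.04, -0.48 and -0.61, and with a filter at the 75th percentile they were -0.63, -0.90 and -0.75, so the order of the classes depends on the setting. The ranges within a class were wider than the gaps between classes: polymerase I ran from -2.94 to 0.51, polymerase II from -1.73 to 0.22 and polymerase III from -3.07 to 0.29. Whole enzymes were also counted with their shared subunits, for the genes that the naming rule reaches. Of tested subunit genes, 9 of 13 of polymerase I were lower, 9 of 12 of polymerase II and 10 of 16 of polymerase III. Over all tested genes 22.8% were lower. CRCP of polymerase III, which was not called, is not in these counts. POLR1A and POLR3C, which passed the filter only because of their level in normoxia, are in the counts and in the class medians and ranges. No test was made between classes.

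**Figure D2:**
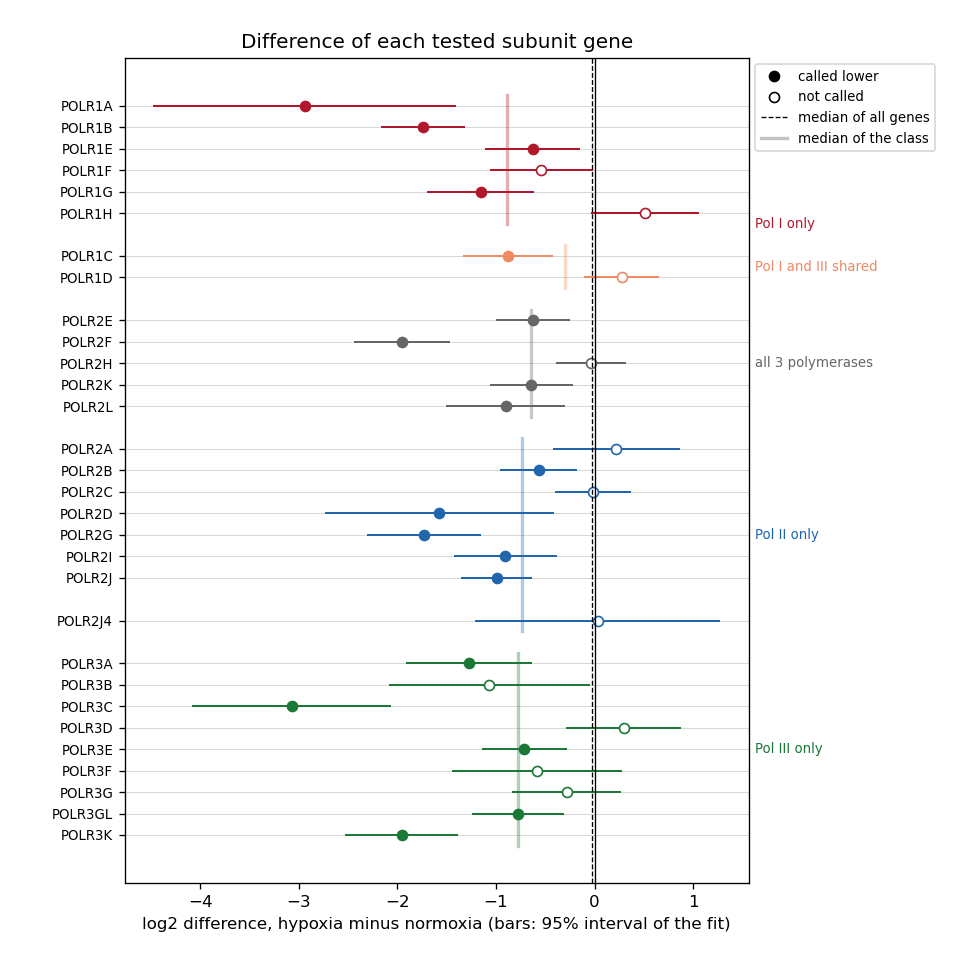
Log2 difference (hypoxia minus normoxia) of the 30 tested genes with the 95% interval of the limma fit, coloured by class. Filled circles mark genes called lower, and pale vertical lines mark class medians, which lie between -0.89 and -0.30, left of the dashed line at -0.03 for all genes.

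The large subunits of the enzymes were also compared within arrays. The ratio of 2 genes within an array is not changed by the scaling of that array, apart from the constant added before the logarithm, and 6 such ratios were formed after the values had been seen. They describe how the 2 genes moved against each other on these arrays and say nothing of their relative levels. Unequal change is not established by them, since the permutation test below cannot decide it with 2 arrays per group. The hypoxia signals of POLR1A lay under those of a Bacillus probe set (305 on hypoxia A and 226 on hypoxia B), and its log2 difference was -3.64 with a constant of 1 and -2.04 with 100, so the ratios are not ranked. Relative to its normoxia mean, the log2 ratio of POLR1A over POLR2A was -2.45 and -3.87 on the hypoxia arrays, against 0.26 and -0.26 on the normoxia arrays. For POLR3A over POLR2A it was -1.67 and -1.32 in hypoxia, against 0.21 and -0.21 in normoxia. POLR1B over POLR2B gave -1.09 and -1.26 in hypoxia, against 0.10 and -0.10 in normoxia. In these 3 ratios the groups did not overlap, and neither did they in POLR1A over POLR3A (difference -1.67) or POLR1B over POLR3B (difference -0.67), while POLR3B over POLR2B overlapped (difference -0.50). An exact two-sided permutation test over 2 and 2 arrays cannot go under p = 0.333, the value of the 5 ratios without overlap (Benjamini-Hochberg adjusted p = 0.4 over the 6, exact test).

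**Figure D3:**
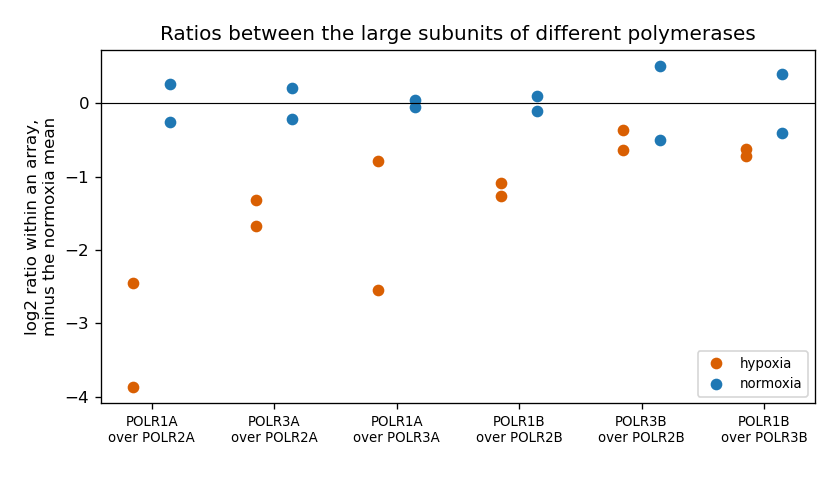
Log2 ratio of pairs of large subunit genes within each array, minus the normoxia mean of that ratio, with orange points for hypoxia and blue points for normoxia. The hypoxia points of POLR1A over POLR2A lie at -2.45 and -3.87, and of the hypoxia points of POLR3B over POLR2B, -0.37 lies between the normoxia points and -0.64 below them.

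The array has 75 probe sets for the 32 genes, of which 55 passed the filter. For 18 of the tested genes there were 25 further probe sets past the filter, and 19 of these had the same sign as the brightest one. The 12 lower genes with further sets had 15 of them, and 14 were negative. POLR3C had -2.77 in its other set, POLR1A had -2.67 and -1.02, POLR2D had -1.31, POLR3A had -1.14 and POLR1C had -1.20. The exception was a set of POLR1B at 0.19, which carries the cross-hybridization suffix, beside 2 others at -1.24 and -1.55. POLR1D was positive in all of its sets, at 1.24 and 0.61 beside 0.28, and was called higher when the sets of a gene were averaged (0.71, adjusted p = 0.0195). Sets of POLR1F (0.38), POLR3G (0.24), POLR2C (0.16 and 0.45) and POLR2J4 (-0.18) had the opposite sign to the brightest set of their gene, and none of these genes was called.

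**Figure D4:**
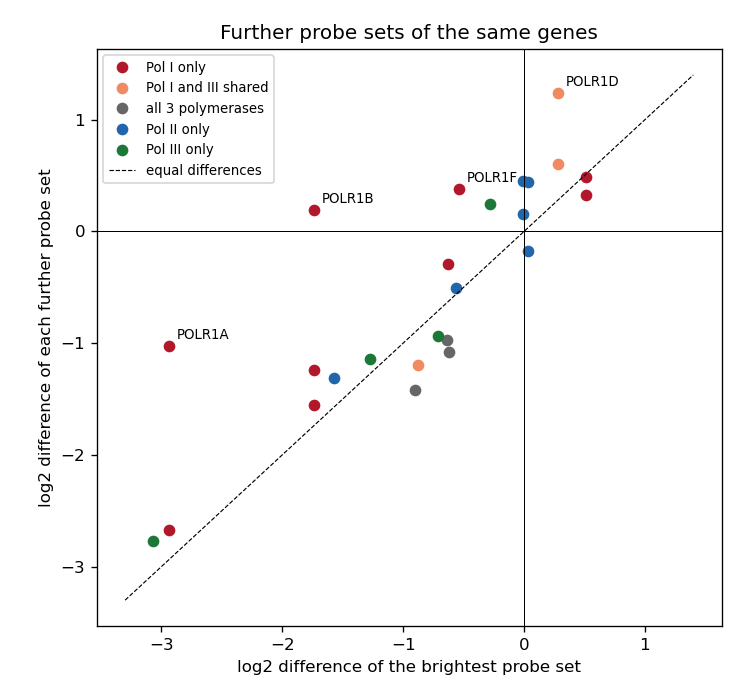
Log2 difference (hypoxia minus normoxia) of each of the 25 further probe sets past the filter against that of the brightest probe set of the same gene, coloured by class, with a dashed line of equality. Labels mark the sets that lie more than 0.75 from the line, among them the set of POLR1B at 0.19.

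The promoters of the genes with the lowest log2 difference in each class, among those matched, are shown together with that of POLR2A, which was not called, so that genes that fell together can be compared upstream of their starts. Each is the 250 bases that end just before the first base of the gene in RefSeq (GRCh38.p14), read 5′ to 3′ on the strand of the gene. Of the 22 tested genes with an entry in the promoter table, 21 had a window that ends there, and the others were not used. Capitals mark CACGTG, the E-box bound by MYC and its relatives, and CCGGAAG or its complement CTTCCGG, the core bound by ETS factors.
POLR1A (chr2:86105887-86106136, minus strand): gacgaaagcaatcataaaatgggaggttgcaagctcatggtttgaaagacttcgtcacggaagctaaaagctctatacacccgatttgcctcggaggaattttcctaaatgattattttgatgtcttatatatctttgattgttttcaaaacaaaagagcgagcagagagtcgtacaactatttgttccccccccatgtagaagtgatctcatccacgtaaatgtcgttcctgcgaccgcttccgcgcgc
POLR1C (chr6:43516839-43517088, plus strand): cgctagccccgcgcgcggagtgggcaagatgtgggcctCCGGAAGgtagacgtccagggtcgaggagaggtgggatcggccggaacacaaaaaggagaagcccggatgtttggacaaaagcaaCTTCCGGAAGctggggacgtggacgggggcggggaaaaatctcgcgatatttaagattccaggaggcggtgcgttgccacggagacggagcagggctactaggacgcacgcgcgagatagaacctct
POLR2D (chr2:127858156-127858405, minus strand): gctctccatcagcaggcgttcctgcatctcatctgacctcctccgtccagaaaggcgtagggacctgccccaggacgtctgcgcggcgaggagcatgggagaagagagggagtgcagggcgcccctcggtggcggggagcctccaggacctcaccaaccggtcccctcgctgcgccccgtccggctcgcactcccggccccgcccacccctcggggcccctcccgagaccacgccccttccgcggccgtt
POLR3C (chr1:145823950-145824199, plus strand): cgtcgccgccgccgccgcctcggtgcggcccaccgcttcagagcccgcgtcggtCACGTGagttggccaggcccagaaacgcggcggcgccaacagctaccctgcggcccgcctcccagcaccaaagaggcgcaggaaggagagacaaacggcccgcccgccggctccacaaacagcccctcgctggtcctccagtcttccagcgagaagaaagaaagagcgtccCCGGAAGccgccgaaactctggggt
POLR2F (chr22:37953413-37953662, plus strand): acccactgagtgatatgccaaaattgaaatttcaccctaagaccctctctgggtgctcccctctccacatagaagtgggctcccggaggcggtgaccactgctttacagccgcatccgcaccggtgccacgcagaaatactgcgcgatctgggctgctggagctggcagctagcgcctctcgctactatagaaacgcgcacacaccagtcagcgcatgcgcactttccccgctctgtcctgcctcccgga
POLR2A (chr17:7484116-7484365, plus strand): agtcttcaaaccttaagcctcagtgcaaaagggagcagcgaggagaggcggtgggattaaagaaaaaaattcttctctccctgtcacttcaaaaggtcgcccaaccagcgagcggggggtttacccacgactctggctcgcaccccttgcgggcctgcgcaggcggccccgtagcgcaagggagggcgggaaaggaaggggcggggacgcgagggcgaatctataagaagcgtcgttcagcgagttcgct

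CACGTG stood in 3 of the 21 windows (14.3%), those of POLR1G, POLR3A and POLR3C, and in 6.44% of the 24885 genes matched in the same way. The shorter ACGTG, a core that hypoxia-inducible factors recognise and which is contained in CACGTG, stood in 6 (28.6%) on either strand, against 18.7% of all. CCGGAAG was found on either strand in 5 (23.8%), against 8.81% of all, and in the POLR1C window it occurred 3 times, with 2 of the matches overlapping on opposite strands. TATAAA was in 0 of the 21 windows and in 11.4% of all. Of the 14 windows of lower genes 3 held CACGTG, 6 held ACGTG and 4 held CCGGAAG, and of the 7 windows of genes not called 0, 0 and 1 held them. The 24885 genes were not limited to genes tested on the array, whereas the 21 all were, so these shares compare unlike sets. The median share of G and C bases was 60% in the 21 windows and 57.6% in all. These are matches of letters in a fixed window, and no binding was measured.

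The factors that work with the polymerases are given by list, each beside the 22.8% of all tested genes that were lower and the 15.3% that were higher. Among the lower genes named below, the hypoxia means of TAF1C (218), SNAPC4 (205), GTF2H4 (258), TEFM (166) and MTERF1 (170) were under 305. A Bacillus probe set reached 305 on hypoxia A, so the size of these differences is uncertain. Of 7 initiation and termination factor genes of polymerase I, 3 were lower (42.9%) and 0 higher, with a median log2 difference of -0.63. RRN3, which links the growth state of the cell to polymerase I initiation, had 1875 and 1795 in hypoxia, against 3916 and 3453 in normoxia (log2 difference -0.99 ± 0.17 SE, adjusted p = 0.00210). TAF1C and TAF1A, subunits of the promoter selectivity factor, had log2 differences of -1.43 and -0.63. TAF1C was -0.87 without hypoxia B and lost its call with no filter and with the mean of all probe sets, and TAF1A lost its call with quantile normalization and scaling to the 75th percentile. No call was left without normoxia A, and that of RRN3 alone was left without normoxia B. More were called lower without hypoxia B, as over all tested genes. The list's median was -0.60 without normoxia A, -0.62 without normoxia B and -0.66 without hypoxia B.

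Of 15 polymerase III initiation factor genes, 7 were lower (46.7%) and 1 was higher, with a median of -0.51. GTF3C6, a subunit of the factor that binds the internal promoters of transfer RNA genes, had 527 and 539.9 in hypoxia, against 3743 and 3289.8 in normoxia, without overlap (log2 difference -2.67 ± 0.19 SE, adjusted p = 5.34e-05). SNAPC4 (-1.57) and SNAPC5 (-1.54), from the complex at small nuclear RNA promoters, were lower, while SNAPC3 of the same complex was higher, with 2063 and 1842 in hypoxia, against 901 and 550.0 in normoxia (log2 difference 1.44 ± 0.26 SE, adjusted p = 0.00258). The value of SNAPC3 was -0.39 on a probe set without a suffix for shared sequence, so its direction depends on the probe set, and 0.0066 when scaled to the hybridization controls. With the mean of all probe sets SNAPC5 was -0.63 and not called, and the list's median was -0.36. SNAPC4 was -0.86 without hypoxia A and lost its call with quantile normalization, with no filter and with either normoxia array left out; 3 of the 15 were lower without normoxia A and 2 without normoxia B.

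The general initiation factors of polymerase II were lower in 9 of 17 tested genes (52.9%) and higher in 1, with a median of -0.74. The 4 with the largest change were GTF2H3, GTF2H5, GTF2H1 and GTF2H4, which encode core subunits of TFIIH, the factor that opens promoter DNA and also serves excision repair. Of the other TFIIH genes of the list, named after their values were seen, CCNH (-1.06) and ERCC3 (-0.96) were lower, and ERCC2 (-0.60), CDK7 (-0.52) and MNAT1 (0.52) were not called. GTF2H3 had 409.7 and 501 in hypoxia, against 3655 and 2690.3 in normoxia (log2 difference -2.73 ± 0.23 SE, adjusted p = 9.03e-05), and GTF2H5, GTF2H1 and GTF2H4 had log2 differences of -1.66, -1.62 and -1.54. A mean over its probe sets left GTF2H5 at -0.21 and not called, and put GTF2H1 at -1.07. The gene that was higher, named after its values were seen, was GTF2E2 (0.89), a subunit of TFIIE. Scaled to the hybridization controls it was -0.56, and it lost its call without normoxia A. Leaving out normoxia A left 6 genes lower and leaving out normoxia B left 5, where GTF2H4 lost its call.

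Pausing and elongation factors of polymerase II were lower in 7 of 20 tested genes (35%) and higher in 3 (15%), with a median of -0.46, or -0.20 with the mean of all probe sets. ELL2, which raises the elongation rate within the super elongation complex, had 7569 and 8753 in hypoxia, against 1235 and 1021 in normoxia, the largest increase among the factors (log2 difference 2.83 ± 0.18 SE, adjusted p = 3.68e-05). Its relative ELL3 was lower (-1.14), as were LEO1 (-1.16) and RTF1 (-1.08), genes of the PAF1 complex and its partner. CCNT1, a cyclin of the elongation kinase (0.84), and TCEA1, which rescues stalled polymerase II (0.48), were the others that were higher and were named after their values were seen. Both were negative when scaled to the hybridization controls (-0.61 and -0.98), where ELL2 was 1.39 and not called; with the mean of its probe sets ELL2 was 1.62. TCEA1 lost its call under 11 of 17 alternatives, those without hypoxia B or a normoxia array among them. LEO1 and ELL3 lost their calls with either normoxia array left out, and RTF1 without normoxia B and with the mean of its probe sets (-0.40). Fewer were called lower with either normoxia array left out and more with either hypoxia array left out, as over all tested genes. The list's median was -0.34 without normoxia A, -0.41 without normoxia B, -0.41 without hypoxia A and -0.36 without hypoxia B.

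Of 12 tested genes for assembly and nuclear import of the polymerases, 3 were lower (25%) and 0 higher, with a median of -0.43, so that the share lower was near that of all genes. These were the ATPase genes RUVBL1 and RUVBL2, which work in a chaperone complex for the polymerases and in chromatin remodelling, and RPAP2, a phosphatase of the polymerase II tail that accompanies it into the nucleus. RUVBL1 had 259.6 and 485 in hypoxia, against 3281 and 2871 in normoxia (log2 difference -3.03 ± 0.29 SE, adjusted p = 0.000136), and RUVBL2 had 1988 and 1690.3 in hypoxia, against 5887 and 6717 in normoxia (log2 difference -1.77 ± 0.17 SE, adjusted p = 0.000155). RPAP2 had a log2 difference of -1.73. All 3 were lower under every alternative setting tried. With hypoxia B left out more of the list was called lower, as over all tested genes, and its median was -0.41.

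Mitochondrial transcription, which uses a separate single-subunit polymerase, gave 4 lower (66.7%) and 0 higher of 6 genes, with a median of -1.40, or -0.43 with the mean of all probe sets. TEFM (-1.75), an elongation factor, TFAM (-1.61), which packages and activates mitochondrial DNA, MTERF1 (-1.57) and TFB2M (-1.23), an initiation factor, were lower. A mean over probe sets put TFB2M at 0.057 and TEFM at -0.40, neither of them called. The 2 genes not called, named after their values were seen, were TFB1M (-0.17) and POLRMT (-0.02), which encodes the polymerase itself. Without normoxia A 2 of the 6 were lower, since TEFM and MTERF1 lost their calls, and MTERF1 lost it under 8 of 16 alternatives, among them without hypoxia B (-0.96). With the mean of all probe sets 1 was lower. With a filter at the 75th percentile, 4 genes were tested, 2 were lower and the median was -0.70. Of all tested genes 32.3% were lower under that filter. Of the 4 tested regulators of polymerases I and III, 1 was lower (25%), also a share near that of all genes. This was MYC, with 5508 and 6941 in hypoxia, against 13389.7 and 14846 in normoxia (log2 difference -1.19 ± 0.18 SE, adjusted p = 0.00109), and the other 3 were not called.

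**Figure D5:**
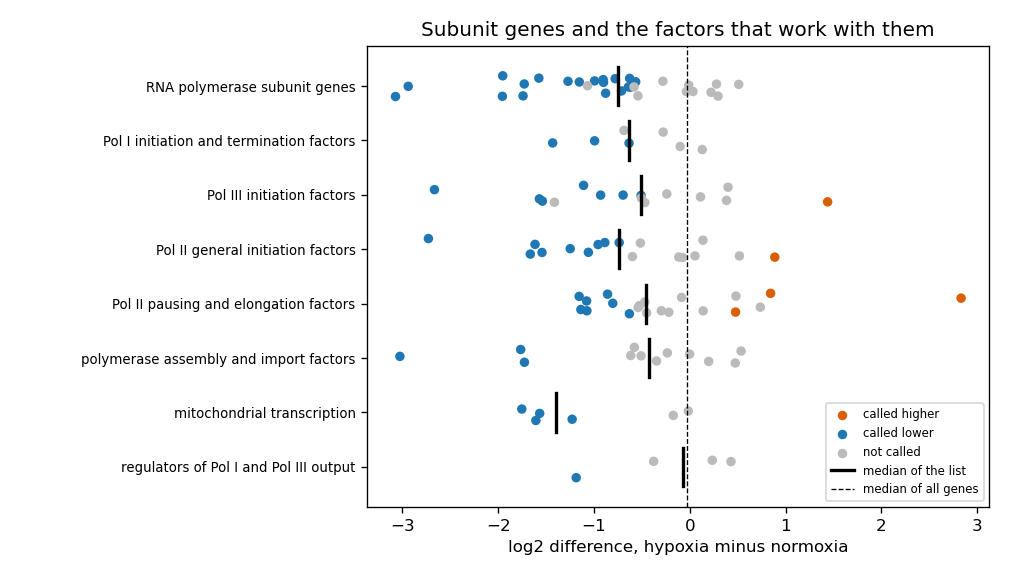
Log2 differences (hypoxia minus normoxia) of the tested genes in the subunit list and in 7 lists of factors, with orange for genes called higher, blue for genes called lower, grey for genes not called, and a black bar at each list's median. Points are spread vertically for legibility; the subunit genes have a median of -0.75, mitochondrial transcription has -1.40, and ELL2 stands alone on the right.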

How the data were processed

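Biotin-labelled cRNA from 6 µg of total RNA was hybridized to 4 arrays, per the labels' protocols. The deposited values are intensities on a linear scale, 1 for each of 54675 probe sets, and per the submitters' processing notes the authors made them with MAS5, whose version and settings are not given in the sources used here. Detection calls were not used. Depth does not apply to arrays; their number limits the precision.

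Arrays were grouped as hypoxia or normoxia by their labels, and the oxygen levels come from the design text of the series. The platform annotation named the probe sets: 41097 had 1 gene, 1801 several and 11721 none. Current symbols came from RefSeq for 19735 of 19775 genes. Each gene was represented by its brightest probe set over the 4 arrays, log2(signal + 23.7) was taken with no further normalization, and genes with a mean at or above 97.4 were tested with limma 3.58.1 in R 4.3.3 (lmFit, eBayes with intensity trend, two-sided), adjusted by Benjamini-Hochberg over 12636 genes and called at an adjusted p under 0.05. No 2 arrays shared more than 1 identical value. The fit was tested on simulated data. Figures used Python 3.11.15 and matplotlib 3.10.9.

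The members and gene lists were chosen with earlier results of these data known. All subunit genes past the filter are named. Of each factor list, up to 4 called genes with the largest change are named, and others are stated as named after their values were seen; CRCP stands as a subunit under another symbol. The alternatives were other pseudocounts, normalizations, filters, probe set choices, variance models, a stricter threshold, a replicate block for the letters, and leaving out each array.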

Additional observations from a re-analysis of the deposited data

How the results depend on the processing

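Over 17 alternatives, 6 of the 19 lower subunit genes (POLR1B, POLR2F, POLR2G, POLR2J, POLR3C and POLR3K) were called lower wherever they were tested, and none of the 19 changed sign. POLR3C passed the filter only because of its level in normoxia, which favours a call of lower, and it was not tested with the higher filter. POLR3K was not tested with sets without a suffix. The value of POLR2J stays uncertain, since its probe set is open to cross-hybridization with its copies. Against 19 lower genes there were 8 with limma without trend and 10 at an adjusted p under 0.01, and 7 to 20 when 1 array was left out. Against 0 higher genes there was 1 with the mean of all probe sets (POLR1D), 1 with the replicate block (POLR1H, limma adjusted p = 0.0351) and 0 to 1 when 1 array was left out. All genes called lower numbered 2876 in the fit reported, 5789 scaled to the hybridization controls, 1811 without trend, 1797 at 0.01 and 1475 to 3749 without 1 array; those called higher numbered 1927, with 52 scaled to the hybridization controls, 1197 at 0.01 and 1253 to 2419 without 1 array. What arrays of the same experiment letter share is not given, so they were not treated as paired. Their deviations had a correlation of 0.09 across genes, which over 2 pairs cannot show whether they belong together. The replicate block left 19 subunit genes lower. That fit leans on the variance shared over genes, with a limma adjusted p of 7.19e-45 for ELL2, against 3.68e-05 in the fit reported. Its count therefore does not settle pairing. With 1 array left out, the lone array of its group is assumed to vary like the pair of the other; SDs of log2 values had a median of 0.27 in hypoxia and 0.15 in normoxia.

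The median of the polymerase I class was -0.84 with a pseudocount of 100, -0.74 with quantile normalization, -0.75 scaled to the 75th percentile, -2.32 scaled to the hybridization controls, -0.63 with a filter at the 75th percentile, -1.04 with the mean of all probe sets and -1.06 to -0.75 without 1 array. That of polymerase II was -2.18 scaled to the hybridization controls, -0.48 with the mean of all probe sets, -0.57 with no filter, -0.59 scaled to the 75th percentile, -0.90 with a filter at the 75th percentile and -0.78 to -0.62 without 1 array. For polymerase III it was -0.63 with quantile normalization, -0.63 scaled to the 75th percentile, -2.21 scaled to the hybridization controls, -0.61 with the mean of all probe sets, -0.86 with sets without a suffix and -0.92 to -0.66 without 1 array. Genes that changed sign were not called in the fit reported, apart from the factors given at the end. POLR1D was -0.13 with quantile normalization and -1.18 scaled to the hybridization controls, which also gave POLR1H -0.93, POLR2A -1.20, POLR2J4 -1.24 and POLR3D -1.11. POLR2H was 0.11 and POLR2C 0.14 scaled to the 75th percentile. POLR2C was 0.039 with quantile normalization and 0.20 with the mean of all probe sets, where POLR3B was 0.27. The further sets of POLR3B, at 1.44 and 0.44, were under the filter. Without 1 array the range was -0.10 to 0.54 for POLR2A, -0.090 to 0.067 for POLR2C and -0.18 to 0.89 for POLR2J4. CRCP was 0.071 with quantile normalization, 0.029 scaled to the 75th percentile and -0.45 to 0.22 without 1 array. Among called factors, GTF2E2 (-0.56), CCNT1 (-0.61) and TCEA1 (-0.98) turned when scaled to the hybridization controls, TFB2M (0.057) with the mean of all probe sets, and SNAPC3 (-0.39) with sets without a suffix. The number of lower factors ranged over the alternatives from 0 to 5 for polymerase I, 2 to 11 for polymerase III, 5 to 11 and 2 to 13 for initiation and elongation by polymerase II, 3 to 8 for assembly and 1 to 5 in mitochondria. The cause of these changes was not tested.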
